A study of Mus musculus with 6 samples.

Results

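Collagen genes were compared between E11.5 heart ventricles of skNAC knockout mouse embryos and of wild-type littermates. Their probe sets were found by name, as all those whose platform annotation gives exactly 1 gene symbol of the form Col, a number, a and a number. This took 42 of 18193 genes and 82 of 45101 probe sets on an Affymetrix Mouse Genome 430 2.0 array, a 1-colour array on which each gene is read by 1 or more probe sets. There were 3 knockout arrays, numbered 1, 26 and 66 in their titles, and 3 wild-type arrays, numbered 13, 23 and 57. The knockout carries a targeted deletion of skNAC, the long muscle-specific product of the Naca gene, and is lethal by E12.5 per the labels. All samples were ventricle of the 129SvEv strain, and each array was made from 500 ng of amplified and labelled total RNA. The labels do not say whether an array held 1 heart or several, nor which embryos shared a litter. The p-values therefore measure only the spread between these samples, which may be technical.

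Collagens are secreted proteins in which a set of alpha chains winds into a triple helix built on repeats that begin with glycine. Fibrillar collagens such as types I, III and V assemble into the tension-bearing fibrils of connective tissue, and type IV chains form the meshwork of basement membranes under endothelium, endocardium and around cardiomyocytes. The other families decorate fibrils, form beaded filaments and anchoring structures, or span the cell membrane. In the embryonic heart fibrillar chains are made mainly by mesenchymal cells of the cushions and epicardium, while type IV chains come from several cell types.

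RefSeq promoter windows on build GRCm38.p6, from 250 bases before to 50 after an annotated start, were available for 33 of the 42 genes, including 22 of the 29 that passed the filter on dim signals described below. Col1a1 was not among them. The bases upstream of the outermost annotated start are shown for Col1a2 and Col6a3, which had the smallest p after Col1a1, and for Col3a1, a fibril chain whose brightest probe set differed little between genotypes. Letters are 5′ to 3′ on the gene's strand, and capitals mark matches to a CCAAT box, to the TATA box letters TATAAA, or to the GC box letters GGGCGG, each searched on both strands. No marked match overlaps another in these stretches. Col1a2 lies on the plus strand at chr6:4505368-4505617, Col6a3 on the minus strand at chr1:90844002-90844221 and Col3a1 on the plus strand at chr1:45311288-45311537.
Col1a2: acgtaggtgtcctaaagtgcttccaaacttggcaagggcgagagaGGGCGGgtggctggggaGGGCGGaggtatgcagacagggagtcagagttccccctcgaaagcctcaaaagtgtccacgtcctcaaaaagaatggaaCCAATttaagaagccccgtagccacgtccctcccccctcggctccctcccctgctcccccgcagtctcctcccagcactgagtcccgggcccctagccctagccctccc
Col6a3: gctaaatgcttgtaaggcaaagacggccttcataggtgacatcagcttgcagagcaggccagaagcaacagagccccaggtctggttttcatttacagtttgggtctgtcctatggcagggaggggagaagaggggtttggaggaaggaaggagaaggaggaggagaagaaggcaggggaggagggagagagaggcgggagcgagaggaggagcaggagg
Col3a1: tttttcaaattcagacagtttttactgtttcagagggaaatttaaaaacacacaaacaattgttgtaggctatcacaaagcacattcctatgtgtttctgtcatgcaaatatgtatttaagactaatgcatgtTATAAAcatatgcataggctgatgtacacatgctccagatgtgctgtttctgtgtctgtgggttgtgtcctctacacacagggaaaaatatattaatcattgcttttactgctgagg
The Col1a2 stretch held 1 CCAAT box and 2 GC boxes, the Col3a1 stretch 1 TATA box and the Col6a3 stretch 0 of the 3 motifs. Over the whole windows, the CCAAT letters were in 13 of 36 collagen windows (36.1%) and in 37.4% of all 32851 windows, and those of the TATA box in 13.9% and 13.6%. The GC box letters were in 22 of the 36 collagen windows (61.1%) and in 35.7% of all windows. These are matches of letters, not shown sites.

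Values are MAS5 signals, linear intensities that were scaled per array to a 2% trimmed mean of 250, with array medians from 92.0 to 113.9. With no counts to go by, precision rests on there being 3 arrays a genotype. Cardiomyocyte markers were bright on every array, with Myl2, the ventricular myosin light chain, at 20443 to 25534 in knockout and 18174 to 19160 in wild-type. Naca read 9047, 9034 and 8595 in knockout and 8385, 8566 and 8286 in wild-type (brightest probe set). No source at hand tells whether these probes lie in the deleted stretch, so this does not check the genotypes. Knockout 66 stood apart from the other 5 arrays, with a first principal component score of 55.9 against -24.7 to 4.79, so the results below are also given without it where this matters.

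No collagen gene passed the test across all genes. The main fold change is a log2 difference, knockout minus wild-type, of signal + 16, and the added 16 shrinks differences of dim genes. A probe set was tested in limma when its mean over the 6 arrays exceeded a signal of 95.2, the median of all probe sets, and each gene was taken at its brightest probe set. This left 29 collagen genes among 11661 genes tested, and 13 collagen genes stayed below the filter. Of the 29, 0 passed an adjusted p of 0.05 in limma, against 0% of all genes tested, and the smallest adjusted p was 0.974. At an unadjusted p under 0.05, which 4.69% of all genes met, 2 collagen genes read lower (6.9%, against 2.51% of all genes) and 0 read higher (2.18% of all genes). The genotypes did not overlap, with knockout the lower, in 3 collagen genes (10.3%, against 5.45% of all genes) and with knockout the higher in 0 (5.40% of all genes).

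The collagen values leaned low in knockout as a set, by a small amount. The log2 difference was below 0 in 23 of the 29 genes (79.3%, against 49.6% of all genes tested), with a median of -0.11 where that of all genes was 0.0023. Fibrillar chains were below 0 in 8 of 9 genes with a median of -0.092, type IV chains in 3 of 5 with a median of -0.084, and the remaining collagens in 12 of 15 with a median of -0.13. These are descriptions of genes that share samples and cells of origin, and no test was made over them. Whether the classes differ from one another was not tested.

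**Figure D1:**
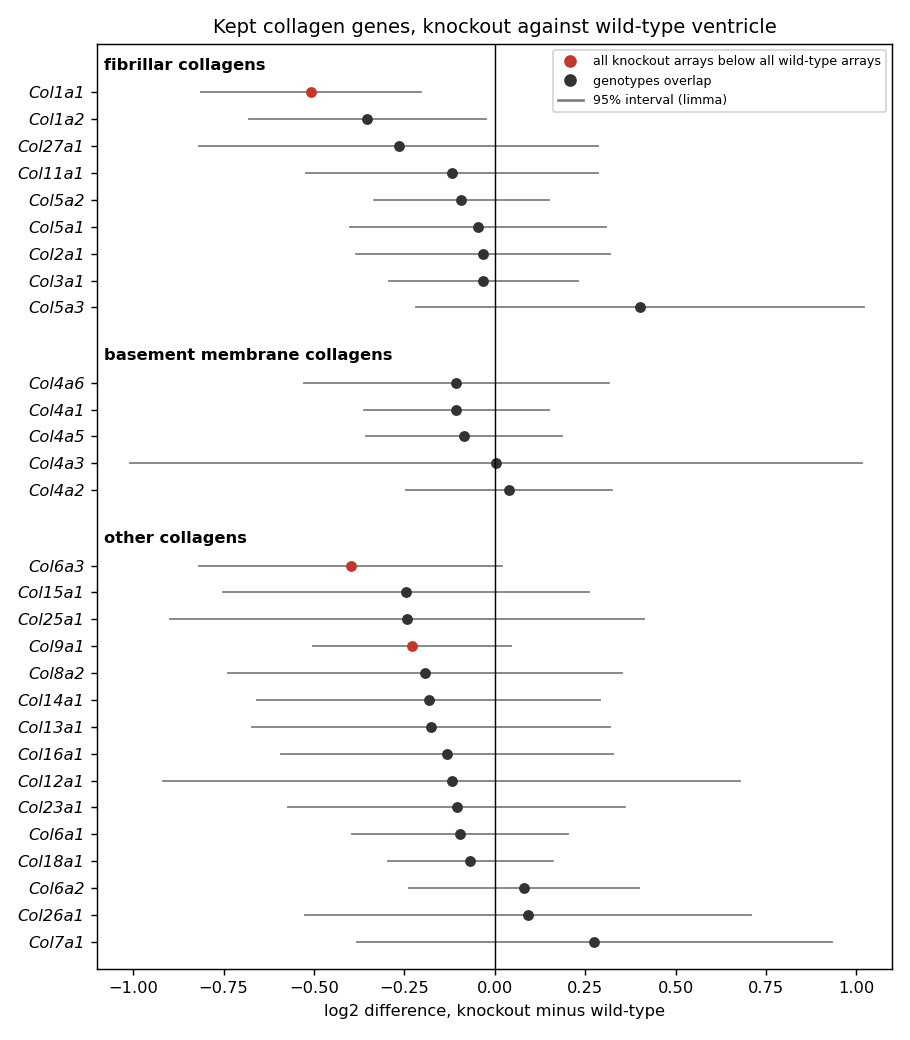
Log2 difference in signal + 16, knockout minus wild-type, of the 29 collagen genes that passed the filter, grouped by class. Points are limma estimates from 3 arrays per genotype, lines are 95% intervals, and red marks the 3 genes (Col1a1, Col6a3 and Col9a1) whose knockout arrays all lay below the wild-type arrays. The intervals of Col1a1 and Col1a2 alone lie wholly on one side of 0.

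Col1a1, which encodes the alpha-1 chain of type I collagen, the main fibril protein of connective tissue, had the smallest p of the family. Its brightest probe set read 616, 490 and 523 in knockout 1, 26 and 66, against 727, 774 and 830 in wild-type 13, 23 and 57. The genotypes did not overlap, and the highest knockout array stayed well under the lowest wild-type array. The means were 543 ± 65.7 in knockout and 777 ± 51.7 in wild-type (SD, n = 3 each), a log2 difference of -0.51 ± 0.14 (SE, 95% interval -0.81 to -0.20). Its limma p was 0.00361 unadjusted and 0.974 adjusted, which ranked 40 among the 11661 genes by p. A dimmer Col1a1 probe set gave 85.1, 107 and 131 in knockout and 159, 167 and 152 in wild-type, again without overlap, and a difference of -0.52 ± 0.24. Both probe sets read the same RNA, so they are not independent replicates.

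Col1a2 encodes the alpha-2 chain that joins the Col1a1 product in type I collagen. It read 1233, 1163 and 1594 in knockout, against 1496, 1976 and 1624 in wild-type. Knockout 66 fell inside the wild-type range, so the genotypes overlapped. The log2 difference was -0.35 ± 0.15 (95% interval -0.68 to -0.02), with a limma p of 0.0373 unadjusted and 0.974 adjusted. The other Col1a2 probe set that passed the filter gave -0.30 ± 0.16. Without knockout 66 the difference of the brightest was -0.49, and without wild-type 23 it was -0.24.

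The remaining fibrillar chains did not separate by genotype on their brightest probe sets. Col3a1, the chain of type III collagen found with type I in distensible tissue, read 2864, 2856 and 3300 in knockout and 3542, 2981 and 2730 in wild-type, a difference of -0.03 ± 0.12 (95% interval -0.29 to 0.23). Its second probe set read 817, 825 and 893 in knockout against 946, 902 and 977 in wild-type, which did not overlap, at -0.15 ± 0.12. The type V chains, which help start and size type I fibrils, spread both ways. Col5a1 stood at -0.05 ± 0.16 and Col5a2 at -0.09 ± 0.11, while a dimmer Col5a2 probe set gave -0.37 ± 0.16 with a limma p of 0.0386 unadjusted and 0.975 adjusted over probe sets.

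Col5a3, the third type V chain, was the one fibrillar gene above 0. It read 224, 134 and 311 in knockout and 167, 128 and 178 in wild-type, a difference of 0.40 ± 0.28. The knockout arrays differed among themselves more than the genotypes did, and the difference was 0.14 without knockout 66. Fibrillar chains best known from cartilage were measured too. Col2a1 (type II) stood at -0.03 ± 0.16, Col11a1 (type XI) at -0.12 ± 0.18 and Col27a1 at -0.27 ± 0.25. Col27a1 read 186, 236 and 115 in knockout and 195, 233 and 204 in wild-type, with knockout 1 and 66 below all wild-type arrays and knockout 26 above them. Col5a2, described above, read 1625, 1461 and 1725 in knockout and 1807, 1638 and 1678 in wild-type.

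**Figure D2:**
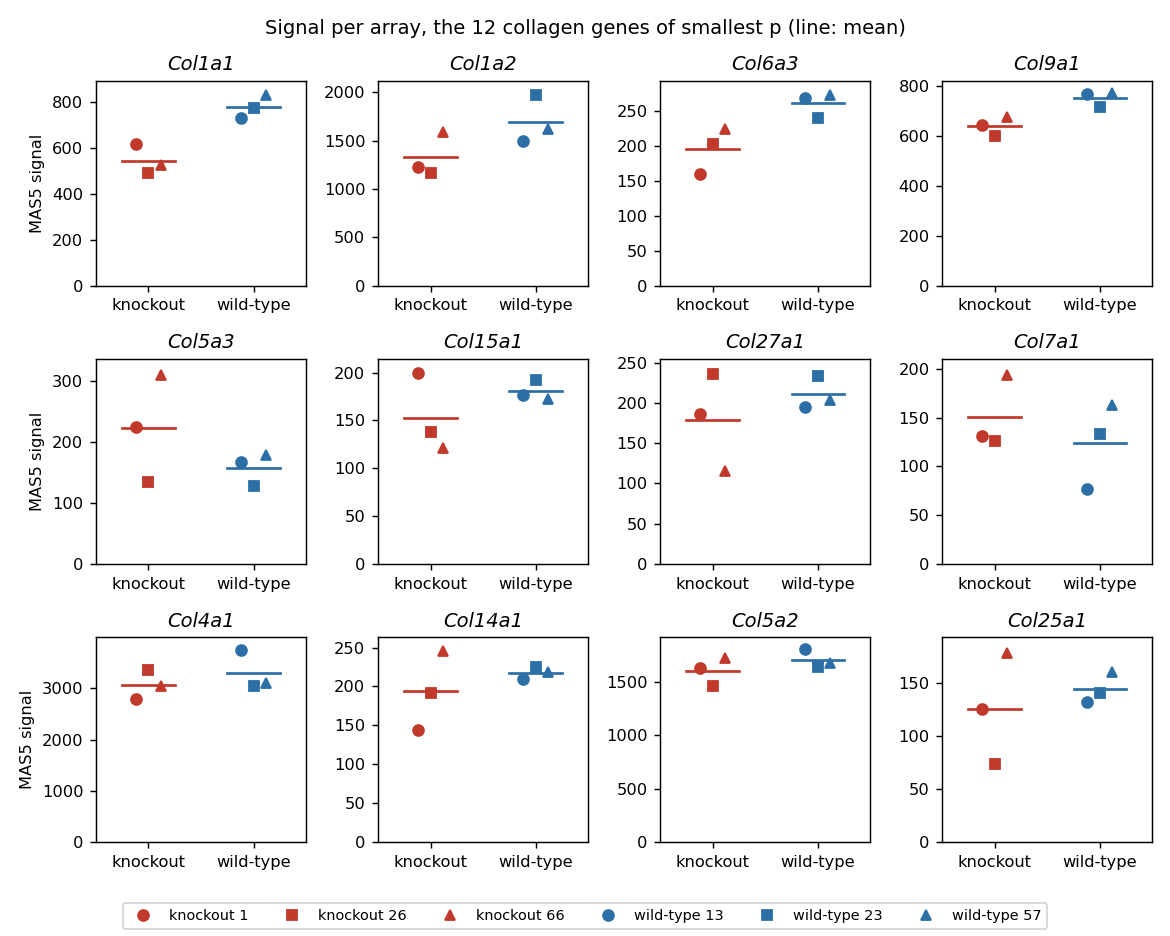
MAS5 signal (linear scale from 0) on each array for the 12 collagen genes of smallest p, knockout left and wild-type right in each panel, with lines at the means of 3 arrays. Col1a1, Col6a3 and Col9a1 have no overlap between genotypes. The other 9 panels overlap, and knockout 66 (red triangle) is the highest or the lowest knockout array in most of them.

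Type IV chains, the network formers of basement membranes, gave no difference beyond the spread between arrays on their brightest probe sets. Col4a1, whose product pairs with that of Col4a2 in most basement membranes, read 2793, 3353 and 3041 in knockout and 3758, 3045 and 3106 in wild-type (-0.11 ± 0.12, 95% interval -0.36 to 0.15). Col4a2 read 1395, 1446 and 1465 in knockout and 1665, 1222 and 1340 in wild-type (0.04 ± 0.13, 95% interval -0.25 to 0.32). Both genes overlapped between genotypes, with knockout 1 and 66 below all wild-type arrays for Col4a1.

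A second Col4a1 probe set went the other way. It read 713, 875 and 791 in knockout, against 536, 655 and 358 in wild-type, without overlap, a log2 difference of 0.64 ± 0.20 (95% interval 0.20 to 1.08). Its limma p was 0.00835 unadjusted and 0.975 adjusted over 22518 probe sets. The 2 readings of Col4a1 thus disagreed in sign, and the mean of both was 0.27. Where along the transcript each one lies was not analysed here.

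The X-linked chains Col4a5 and Col4a6 stood at -0.08 ± 0.12 and -0.11 ± 0.19. Col4a5 read 2077, 1910 and 1573 in knockout and 2071, 1946 and 1847 in wild-type, with knockout 66 the lowest of the 6, and its difference was 0.03 without that array. Xist, the RNA of the inactive X chromosome, read 466 in wild-type 57 and 6275 to 7481 on the other arrays. The Y-linked gene Eif2s3y read 638 in wild-type 57, 166.5 in knockout 1, 213 in knockout 66 and 2.1 to 43.8 on the rest. Kdm5d and Uty, also Y-linked, were likewise highest in wild-type 57 and next highest in knockout 1 and 66. Knockout 1 and 66 had high Xist as well, at 6615 and 6896. The part of embryo sex in the X-linked values was not tested. Without wild-type 57 the Col4a5 and Col4a6 differences were -0.12 and -0.02. Col4a3, a chain of specialised basement membranes such as that of the kidney glomerulus, read 75.8, 49.1 and 259 in knockout and 86.6, 109 and 112 in wild-type, and its interval of -1.01 to 1.02 leaves the direction unresolved. Without knockout 66 Col4a3 fell below the filter, and the median of the 4 remaining type IV genes was -0.04.

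Among the other families, the beaded filament chain Col6a3 and the fibril-associated chain Col9a1 had knockout arrays wholly below wild-type. Col6a3, a chain of type VI collagen, which forms microfibrils around cells, read 160, 203 and 225 in knockout, against 269, 241 and 274 in wild-type. Its means were 196 ± 33.4 and 261 ± 17.6 (SD, n = 3 each), a log2 difference of -0.40 ± 0.19 with a limma p of 0.0601 unadjusted and 0.974 adjusted. Its partners in type VI collagen, Col6a1 and Col6a2, did not follow it, at -0.10 ± 0.14 and 0.08 ± 0.14, and whether the 3 chains differ from each other was not tested.

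Col9a1, a chain of type IX collagen, which coats type II fibrils in cartilage, read 643, 599 and 675 in knockout, against 768, 715 and 772 in wild-type. The log2 difference was -0.23 ± 0.12 with a limma p of 0.0923 unadjusted and 0.974 adjusted. A dimmer Col9a1 probe set gave -0.02 ± 0.26. The other type IX genes, Col9a2 and Col9a3, did not pass the filter. Cartilage markers were mostly dim, with Acan, which did not pass the filter, at 21.0 to 122 in knockout and 102 to 137 in wild-type. Of the cartilage list, 3 of 8 genes passed, each with a difference above 0. Hapln1, the brightest of them, read 1799, 2040 and 1898 in knockout against 1608, 1627 and 1739 in wild-type, without overlap. Its log2 difference was 0.20 ± 0.10, with an adjusted p of 0.974 in limma.

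The fibril-associated chains of type I fibrils, Col12a1 and Col14a1, stood at -0.12 ± 0.36 and -0.18 ± 0.22, and Col16a1 of the same family at -0.13 ± 0.21. Col14a1 read 145, 191 and 245 in knockout and 209, 225 and 218 in wild-type, so the knockout arrays lay on both sides of the wild-type range. The multiplexins, basement membrane proteins that carry sugar chains, were Col15a1 at -0.25 ± 0.23 and Col18a1, the source of endostatin, at -0.07 ± 0.10. Col15a1 read 200, 138 and 121 in knockout and 177, 193 and 173 in wild-type, with knockout 1 the highest of all. A second Col18a1 probe set gave 0.16 ± 0.14. The transmembrane collagens Col13a1, Col23a1 and Col25a1 were all below 0, from -0.24 to -0.11, each with an error of 0.21 or more. Col25a1 read 126, 74.2 and 179 in knockout and 132, 141 and 161 in wild-type. Col7a1, the anchoring fibril chain of skin, stood at 0.27 ± 0.30, with 131, 126 and 194 in knockout and 76.6, 134 and 163 in wild-type. Col8a2 stood at -0.19 ± 0.25 and Col26a1 at 0.09 ± 0.28. All of these genes overlapped between genotypes.

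Agreement between probe sets of a gene varied. Among the 29 genes, 14 had 2 probe sets that passed the filter. In 8 of them both were below 0, in Col6a2 both were above 0, and in 5 the signs were opposite (Col4a1, Col18a1, Col23a1, Col25a1 and Col27a1). The dimmer Col27a1 probe set stood at 0.59 ± 0.34, against -0.27 ± 0.25 on the brighter one. Over all 43 collagen probe sets that passed, 31 were below 0.

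**Figure D3:**
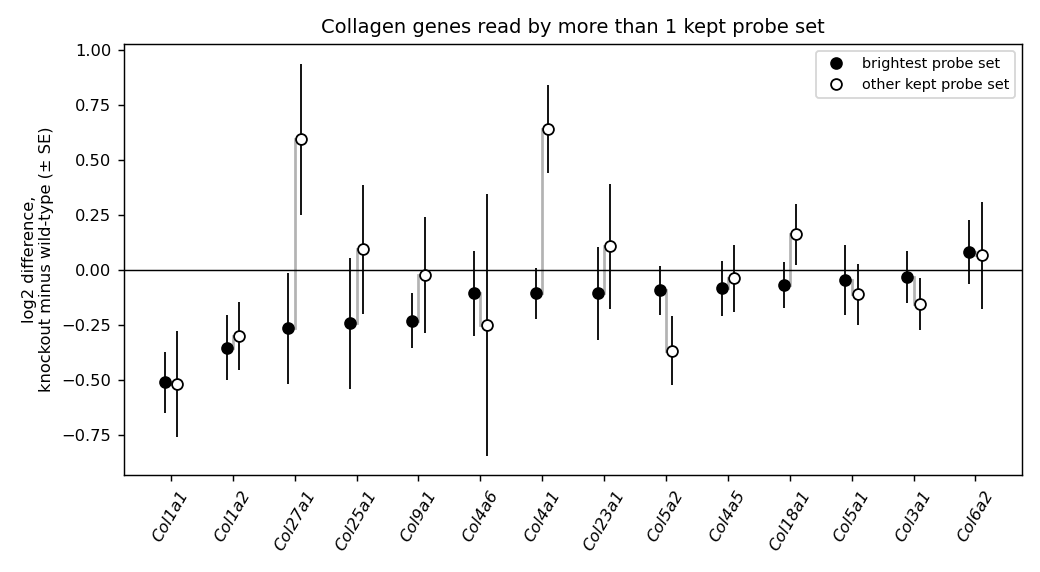
Log2 difference, knockout minus wild-type, with SE, of both probe sets for the 14 collagen genes that have 2 above the filter. Filled points are the brighter probe set and open points the dimmer one. The pair of Col1a1 nearly coincides at -0.51 and -0.52, while those of Col4a1 and Col27a1 lie on opposite sides of 0.

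The lean towards low values was not shared by all knockout arrays. Knockout 1 lay below the wild-type mean in 23 of the 29 genes and knockout 26 in 19, but knockout 66 in 12, where each array did so in 47.8% to 50.3% of all genes tested. Knockout 66 was the highest of the knockout arrays in 20 of the 29 genes, against 39.7% of all genes. The median deviation of the 9 fibrillar genes from their 6-array means was -0.08, -0.18 and 0.10 in knockout 1, 26 and 66, against 0.13, -0.01 and 0.09 in wild-type 13, 23 and 57. For the 15 collagens outside the fibrillar and type IV classes it was -0.09, -0.08 and 0.11 in knockout and 0.10, 0.02 and 0.15 in wild-type.

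Most markers of cushion mesenchyme also read lower in knockout. All 12 listed markers of cushion and outflow mesenchyme passed the filter. Of these, 9 were below 0 (75%, against 49.6% of all genes tested), with a median of -0.15. Their summed signal was 11449 to 12556 in knockout and 13096 to 13620 in wild-type. Most of that sum came from Vcan (-0.09 ± 0.11) and Tbx20 (-0.17 ± 0.14), so it says little about the other members. Knockout lay wholly below wild-type in 16.7% of this list, against 5.45% of all genes. Snai2, a mesenchymal transcription factor, read 511, 278 and 235 in knockout against 559, 527 and 594 in wild-type, without overlap. Its log2 difference was -0.76 ± 0.24, with an adjusted p of 0.974 in limma. Postn, a matrix protein of cushion mesenchyme, read 753, 705 and 1551 in knockout and 1415, 1645 and 1480 in wild-type, with knockout 66 inside the wild-type range. Other members went the other way, with Msx2 at 177, 124 and 244 in knockout against 143, 127 and 141 in wild-type (0.32 ± 0.26) and Pdgfra at 0.14 ± 0.21. No member was at 0, and the lowest value on any array was 124. Knockout 66 had the lowest median deviation for this list (-0.17) and the highest of the knockout arrays for the fibrillar collagens. By the summed signal of this list it was instead the highest knockout array, at 12556. In bulk tissue, fewer cells of a type and less RNA per cell cannot be told apart. The 3′ to 5′ signal ratio of actin was 2.49 to 2.57 in knockout and 2.05 to 2.24 in wild-type, and that of Gapdh was 1.28 to 1.45 in knockout and 1.12 to 1.20 in wild-type. The part of either in the collagen values was not tested.

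**Figure D4:**
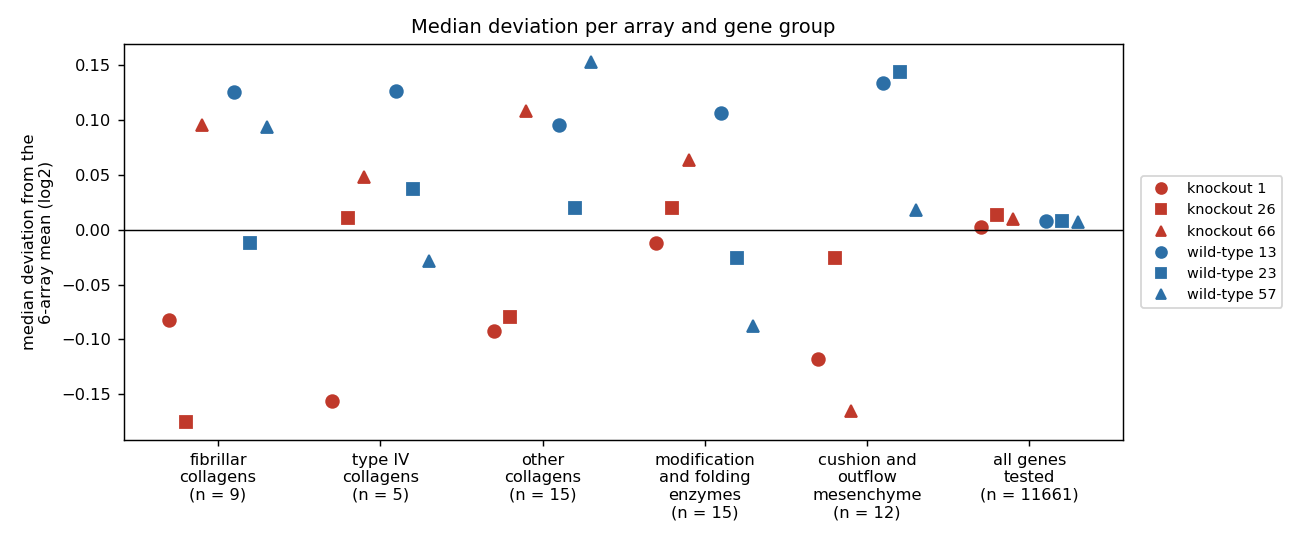
Median deviation of each array from the 6-array mean (log2 scale) over the genes of a group, with knockout arrays in red on the left and wild-type arrays in blue on the right of each group. Knockout 66 (red triangle) lies among the wild-type arrays for the fibrillar, type IV and other collagens, and is the lowest array for the mesenchyme markers.

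Markers of other cell types were mixed. Epicardial markers were below 0 in 4 of 9 genes with a median of 0.05, and their summed signal was 5631 to 6457 in knockout and 5397 to 5897 in wild-type. Krt8, an epithelial keratin in that list, read 1095, 1621 and 1056 in knockout against 603, 787 and 729 in wild-type, without overlap. Its log2 difference was 0.80 ± 0.18, with an adjusted p of 0.742 in limma. Endothelial and endocardial markers were below 0 in 4 of 10 genes with a median of 0.03. Summed signals of the endothelial list were 5052 to 5249 in knockout and 5044 to 5260 in wild-type. Smooth muscle markers were above 0 in 4 of 5 genes with a median of 0.08, and Cnn1 was below 0 at -0.19 ± 0.15. The summed signal of the list was 21308 to 23450 in knockout and 17989 to 20574 in wild-type, without overlap. Most of that sum was the signal of Acta2 alone, so it says little about the other members. Acta2, smooth muscle actin, which the embryonic heart muscle also makes, read 15804, 16070 and 17884 in knockout against 13364, 14618 and 13247 in wild-type (0.27 ± 0.09, adjusted p = 0.974 in limma). Which cells made the RNAs of these lists, and the part of each cell type in the collagen values, were not tested. Liver markers other than Apoa2 did not pass the filter. Their list had a summed signal of 515, 344 and 338 in knockout 1, 26 and 66 and 257 to 370 in wild-type. For the red cell list the sums were 74716, 57849 and 55252 in knockout and 50643 to 61011 in wild-type. Knockout 1 was the highest array for both lists. The part of blood or liver RNA in the collagen values was not tested.

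Genes that modify and fold collagen leaned neither way as a set. The enzymes and chaperones that hydroxylate, glycosylate and fold the chains were below 0 in 8 of 15 measured genes, with a median of -0.01, and 0 passed the adjusted test. Serpinh1, the collagen-specific chaperone, read 3256, 3262 and 3274 in knockout and 3462, 3560 and 2639 in wild-type, a difference of 0.03 ± 0.12. P4ha1 and P4hb, subunits of prolyl 4-hydroxylase, stood at -0.15 ± 0.19 and -0.08 ± 0.11. The prolyl 3-hydroxylases P3h1 and P3h2 stood at 0.26 ± 0.23 and 0.14 ± 0.13, and P3h2 did not overlap, at 548, 550 and 532 in knockout and 496, 507 and 470 in wild-type. Colgalt1, which adds galactose to hydroxylysine, stood at 0.11 ± 0.15.

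Procollagen processing and crosslinking genes were below 0 in 5 of 7, with a median of -0.06 and 0 adjusted calls. Bmp1, the protease that removes the C-terminal propeptide, stood at -0.37 ± 0.23, and Lox, the crosslinking lysyl oxidase, at -0.34 ± 0.29. Loxl3, a related oxidase, stood at 0.25 ± 0.25, and Pcolce, which enhances Bmp1 cleavage, at -0.06 ± 0.18. Collagen receptors were below 0 in 3 of 5, with a median of -0.01. Itga1, an integrin subunit that binds collagen types I and IV, read 331, 304 and 266 in knockout, against 483, 358 and 416 in wild-type, without overlap. Its difference was -0.45 ± 0.17 with a limma p of 0.0216 unadjusted and 0.974 adjusted. Ddr2, a receptor kinase for fibrillar collagen, stood at 0.39 ± 0.33, Itgb1, the beta partner of Itga1, at -0.15 ± 0.14 and Itga10 at 0.16 ± 0.22.

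The 13 collagen genes below the filter had no test. Over the 6 arrays the brightest probe set of Col9a2 read 3.1 to 7.0, that of Col17a1 1.9 to 9.1, that of Col4a4 11.3 to 28.8 and that of Col24a1 12.7 to 35.1. The range was wider for Col6a5 at 38.2 to 72.8, Col20a1 at 36.2 to 75.7, Col6a4 at 18.9 to 78.9 and Col11a2 at 4.3 to 89.7. Some arrays but not the 6-array mean passed 95.2 for Col9a3 (56.6 to 100.1), Col10a1 (8.2 to 103), Col8a1 (43.0 to 114), Col19a1 (47.3 to 119) and Col22a1 (54.4 to 119). Col10a1, the chain of growth plate cartilage, read 8.2, 31.6 and 18.2 in knockout and 76.7, 34.3 and 103 in wild-type. Col8a1, a short chain of vessel walls, lay closest to the filter from below, with 95.6, 104 and 113 in knockout and 73.4, 43.0 and 114 in wild-type. Col12a1 and Col4a3 were among those just above it, each with arrays on both sides of 95.2.

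Leaving out single arrays moved the size of the lean. Without knockout 66, the median log2 difference of the collagens was -0.14 over 28 genes, of which 22 were below 0. Without knockout 1 it was -0.04 over 29 genes, of which 19 were below 0. Col1a1 ranged from -0.60 to -0.44 when each array was left out in turn, and Col6a3 from -0.50 to -0.27. Neither passed an adjusted p of 0.05 in limma in any of these fits.

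**Figure D5:**
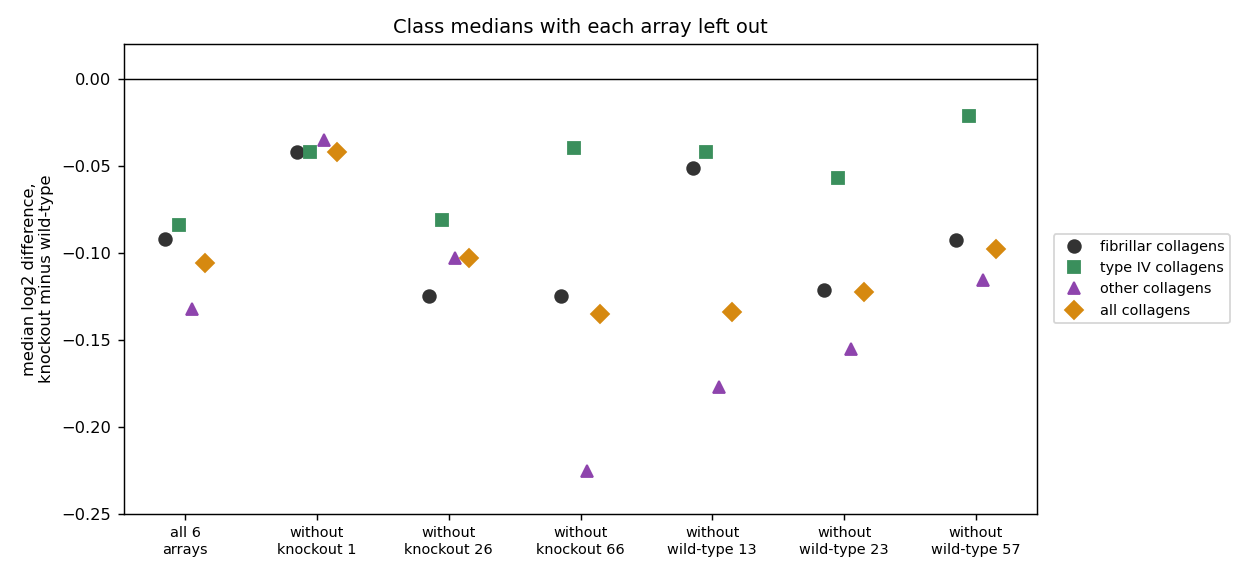
Median log2 difference, knockout minus wild-type, of each collagen class with all 6 arrays and with each array left out. Every median shown is below 0. The collagens outside the fibrillar and type IV classes run from -0.23 without knockout 66 to -0.04 without knockout 1.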

How the data were processed

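The deposited values are MAS5 signal intensities. Per the submitters' processing notes, the authors used GCOS and MAS5. Versions and scaling settings were not stated. In the deposited table every array had the same 2% trimmed mean, so a change of total RNA per cell leaves no trace. The platform annotation listed 1 symbol for 34958 probe sets, several for 932 and none for 9211.

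Log2(signal + 16) was fitted with limma 3.58.1 under R 4.3.3 (lmFit, eBayes with a trend, two-sided) for 22518 probe sets, with Benjamini-Hochberg adjusted p-values called at 0.05. The members, classes and lists were chosen with earlier results of these data known. Every collagen gene was to be named, with array values for the 12 of smallest p, and up to 4 members per pathway list by smallest p. P4hb and Serpinh1, the marker genes, and the array values given for other genes were added after values were seen. The fit was tested on simulated data. Alternatives were pseudocounts of 1 and 64, no filter, a filter at the 70th percentile, quantile normalization, no trend, array weights, dropping _x_at and _s_at probe sets, averaging probe sets, multiplexins counted with type IV, a threshold of 0.1 and each array left out. Figures used Matplotlib 3.10.9 under Python 3.11.15.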

Additional observations from a re-analysis of the deposited data

How the results depend on the processing

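No collagen gene passed an adjusted p of 0.05 in limma under any of the 16 alternatives. The smallest adjusted p was 0.118, for Col1a1 with array quality weights, where knockout 66 had a weight of 0.335 and knockout 26 one of 2.53, and 0.168 for Col1a2. With those weights 8 of all genes passed, none of them a collagen. Of 29 collagen genes, 14 kept their sign under every alternative, 12 below 0 and Col5a3 and Col7a1 above. The median over the collagens lay between -0.14 and -0.042, and that of the type IV chains turned to 0.0026 when probe sets were averaged. The count below 0 was lowest relative to its total with the mean of probe sets and without knockout 1 or knockout 26 (19 of 29), and it was 30 of 42 with no filter and 16 of 18 with the stricter one. The median of the collagens outside the fibrillar and type IV classes was -0.035 without knockout 1 and -0.23 without knockout 66. Counting the multiplexins with the type IV chains left the type IV median at -0.084. No paired analysis was possible because the genotypes share no replicate number.

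Sign turns came under the settings below, for genes with main differences as far from 0 as -0.27 (Col27a1), and the cause was not tested. With array quality weights Col18a1 was at 0.00013, Col5a1 at 0.034, Col2a1 at 0.16, Col23a1 at 0.055 and Col4a3 at -0.57. With the mean of probe sets Col4a1 was at 0.27, Col18a1 at 0.047, Col27a1 at 0.16 and Col23a1 at 0.0011. With pseudocount 1 Col4a3 was at -0.038. Leaving out single arrays, Col3a1 reached -0.11 to 0.072, Col4a5 -0.17 to 0.028, Col4a2 -0.057 to 0.16, Col6a2 -0.015 to 0.21, Col5a1 -0.13 to 0.11, Col2a1 -0.16 to 0.060, Col13a1 -0.32 to 0.021, Col27a1 -0.48 to 0.15, Col23a1 -0.21 to 0.011, Col26a1 -0.20 to 0.31, Col25a1 -0.51 to 0.051, Col12a1 -0.44 to 0.20 and Col4a3 -0.097 to 0.43. The largest errors were those of Col4a3 and Col12a1, and no measure of background was at hand. Col4a3 read 259 on knockout 66 and 49.1 to 112 on the other arrays.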
